A study of Mus musculus with 10 samples.

Results

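The genes described are 8 that set how much cholesterol a cell stores as ester and how much it hands on: *Abca1*, *Abcg1*, *Apoe*, *Apoc1*, *Soat1*, *Soat2*, *Nceh1* and *Mylip*. They were taken from the deposited expression table by gene symbol alone, and the 8 symbols matched 8 of the 25233 entries that carry a symbol, among 62322 entries in all. The table holds bulk RNA sequencing of hepatic stellate cells (HSCs), the vitamin A storing cells of the liver sinusoid, in 2 groups of 5 libraries. The first group was hypertrophied HSCs (hypHSCs) of C57BL/6J mice fed CDAHFD, a high-fat diet without choline and with defined amino acids that leads to steatohepatitis and fibrosis. hypHSC 1 and 2 came from mice aged 19 weeks after 13 weeks of diet, and hypHSC 3, 4 and 5 from mice aged 18 weeks after 12 weeks. The second group was quiescent HSCs (qHSCs) of C57BL/6J mice on standard diet, aged 36 weeks for qHSC 1, 2 and 5 and 34 weeks for qHSC 3 and 4. hypHSCs were sorted on green and qHSCs on blue autofluorescence of their droplets, after digestion under conditions changed for the fatty livers. Antibiotics were added to most buffers for the CDAHFD livers, where bacteria had been found. Diet, age, digestion, antibiotics, bacteria and sorting gate therefore differed together, and their shares in any difference below cannot be told apart. The libraries were selected for RNA quality. The mouse behind each one is not named in the sources used here, so libraries may share a mouse. n thus counts preparations, and the p-values measure the spread between preparations.

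Free cholesterol is toxic in excess, and cells esterify it through the acyltransferases encoded by *Soat1*, found in most cells, and *Soat2*, found mainly in hepatocytes and intestine. The ester is held in lipid droplets until hydrolases, among them the membrane enzyme encoded by *Nceh1*, release the sterol again. Free sterol leaves the cell through the transporters ABCA1 and ABCG1 toward apolipoprotein acceptors such as apolipoprotein E, under the control of liver X receptors (LXRs), nuclear receptors that sense oxysterols and also induce *Mylip*, which encodes the ubiquitin ligase IDOL. In HSCs, which already hold retinyl ester droplets, accumulation of free cholesterol is known to sensitise the cell to fibrogenic signals.

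The start regions of 4 of the genes are shown because the results turn on them: *Soat1* and *Nceh1* had the largest differences of the 8, *Abca1* is the classical LXR target of the set, and *Mylip* is another LXR target with lower counts in hypHSCs. Each sequence is the 250 bases before the RefSeq start site, written 5′ to 3′ on the strand of the gene. The RefSeq table gave entries on GRCm38.p6 for 5 of the 8 genes, and these were placed on GRCm39, the build of the deposited table, by exact match. It held no entry for *Abcg1*, *Apoc1* and *Soat2*. The regions are chr1:156301899-156302148 (minus strand) for *Soat1*, chr3:27236903-27237152 (plus strand) for *Nceh1*, chr4:53159896-53160145 (minus strand) for *Abca1* and chr13:45542968-45543217 (plus strand) for *Mylip*. Capitals mark matches, on either strand, to 4 motifs. The first is the E-box CACGTG. The second, found in many core promoters, is the word TATAAA. The third, bound by the factor NF-Y, is the word CCAAT. The last is a direct repeat of AGGTCA with a gap of 4 bases, the arrangement that LXR with its partner RXR is known to bind, with up to 3 mismatches allowed over the 12 letters.
Soat1: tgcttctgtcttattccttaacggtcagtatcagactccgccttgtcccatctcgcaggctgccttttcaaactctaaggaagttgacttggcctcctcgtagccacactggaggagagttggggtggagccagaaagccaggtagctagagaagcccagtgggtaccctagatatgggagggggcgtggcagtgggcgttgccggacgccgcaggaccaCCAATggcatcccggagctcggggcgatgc
Nceh1: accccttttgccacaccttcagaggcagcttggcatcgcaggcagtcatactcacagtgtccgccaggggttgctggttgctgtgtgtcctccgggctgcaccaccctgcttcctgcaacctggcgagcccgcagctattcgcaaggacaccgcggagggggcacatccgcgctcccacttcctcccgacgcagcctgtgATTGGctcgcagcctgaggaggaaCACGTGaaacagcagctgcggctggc
Abca1: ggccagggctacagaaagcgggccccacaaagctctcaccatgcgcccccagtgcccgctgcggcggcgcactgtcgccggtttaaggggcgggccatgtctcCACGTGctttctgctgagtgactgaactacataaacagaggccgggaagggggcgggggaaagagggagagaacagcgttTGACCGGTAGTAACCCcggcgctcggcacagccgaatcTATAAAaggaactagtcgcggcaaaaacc
Mylip: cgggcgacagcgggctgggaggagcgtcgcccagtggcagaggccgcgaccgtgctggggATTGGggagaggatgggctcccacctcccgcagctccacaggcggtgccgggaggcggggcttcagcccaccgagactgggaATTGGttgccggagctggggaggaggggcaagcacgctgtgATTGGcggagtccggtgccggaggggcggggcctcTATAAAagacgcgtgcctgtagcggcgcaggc

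The repeat was found in 1 of these 4 regions, that of *Abca1*, from -67 to -52 relative to the start site on the minus strand with 3 mismatches, and 18.51% of 32851 mouse promoter windows of this length hold such a match. *Abca1* also holds CACGTG at -147 to -142 (6.021% of windows hold it) and TATAAA at -29 to -24 (12.37% of windows). *Nceh1* holds CACGTG at -26 to -21 and CCAAT at -50 to -46. *Soat1* holds CCAAT alone, at -30 to -26, as 33.85% of windows hold. *Mylip* holds TATAAA at -32 to -27 and 3 matches to CCAAT. These are matches of letters in a short window, and binding was not measured.

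Each library held 30534719 to 43283589 reads on genes with a symbol in hypHSCs and 35640104 to 47317028 in qHSCs. Values are normalized counts, which are reads divided by 1 size factor per library, and 3 reads, the floor used here for a count of 0, equalled 2.25 to 4.54 normalized counts. Mitochondrial genes took 2.21% to 12.8% of reads in hypHSCs, highest in hypHSC 1, and 1.25% to 1.61% in qHSCs. hypHSC 5 had the fewest genes detected, 14028. Markers were checked against the labels. All 10 of the quiescent HSC markers examined were lower in hypHSCs (summed level 6861 to 20619.6 against 818137 to 1483151 in qHSCs), and *Hhip* was at 0 in hypHSC 2, 4 and 5. All 10 macrophage markers and all 8 markers of lipid-associated macrophages were higher in hypHSCs. The macrophage sum was 929074 to 1440791 in hypHSCs against 4809.8 to 110545 in qHSCs, and the lipid-associated sum was 564286 to 809559 against 1913 to 3350.0. *Atp6v0d2*, of the latter list, was at 0 in qHSC 1 and 2. Of 7 Kupffer cell markers, 3 were higher and 1 lower (18510.3 to 34749 against 1445 to 45530.3). Of 9 hepatocyte markers tested 1 was lower and none higher (11895 to 118158 against 24249.95 to 84004), and of 8 myofibroblast markers 2 were higher and 2 lower (15815 to 58284 against 33130.4 to 62197). Endothelial markers summed to 693 to 1133 against 943 to 2217, with 2 higher and 1 lower of 7 tested. All 3 cholangiocyte markers tested were higher (519 to 2874 against 4.72 to 56.1), as were all 4 neutrophil markers tested (1632 to 6178 against 0 to 119.8). None of 2 T and NK cell markers tested was called (34.1 to 667 against 5.11 to 164.6), and 1 of 2 B cell markers was higher (242 to 381 against 5.11 to 127.6). In bulk RNA, fewer cells of a type and less RNA per cell cannot be told apart, nor can a gene of the sorted cell and the same gene in a cell sorted with it. The part of other cell types in the results below was not tested.

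Of the 8 genes, all passed the filter on low values (at least 10 normalized counts in at least 5 libraries). Differences were tested with limma on log2(normalized count + 1), so that folds are on this scale, with Benjamini-Hochberg adjustment over all 14630 genes tested. A gene was called where it differed by 1 or more on the log2 scale in either direction and its adjusted p did not exceed 0.05. The acyltransferase *Soat1*, the hydrolase *Nceh1* and the transporter *Abcg1* were higher in hypHSCs and *Apoc1* was lower, while *Abca1*, *Apoe*, *Soat2* and *Mylip* were not called. That is 3 of 8 called higher and 1 of 8 lower, where 17.8% of all genes were called higher and 21.7% lower (39.5% in either direction). Of all genes called, 45.0% were higher, a share that was 32.4% with libraries scaled to the same total and 17.4% with libraries scaled to *Hprt*, *Pgk1* and *Actb*. The joint level of these 3 reference genes itself differed between the groups. As a divisor for each library it was 0.89 to 1.87 in hypHSCs and 0.67 to 0.84 in qHSCs. Here and below, this scaling therefore lowers hypHSCs relative to qHSCs for every gene. The median log2 fold change of the 8 was 0.51, beside -0.20 over all genes tested. The groups did not overlap for *Soat1*, *Nceh1*, *Abcg1* and *Mylip*, and 39.5% of all genes tested had groups that did not overlap.

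**Figure D1:**
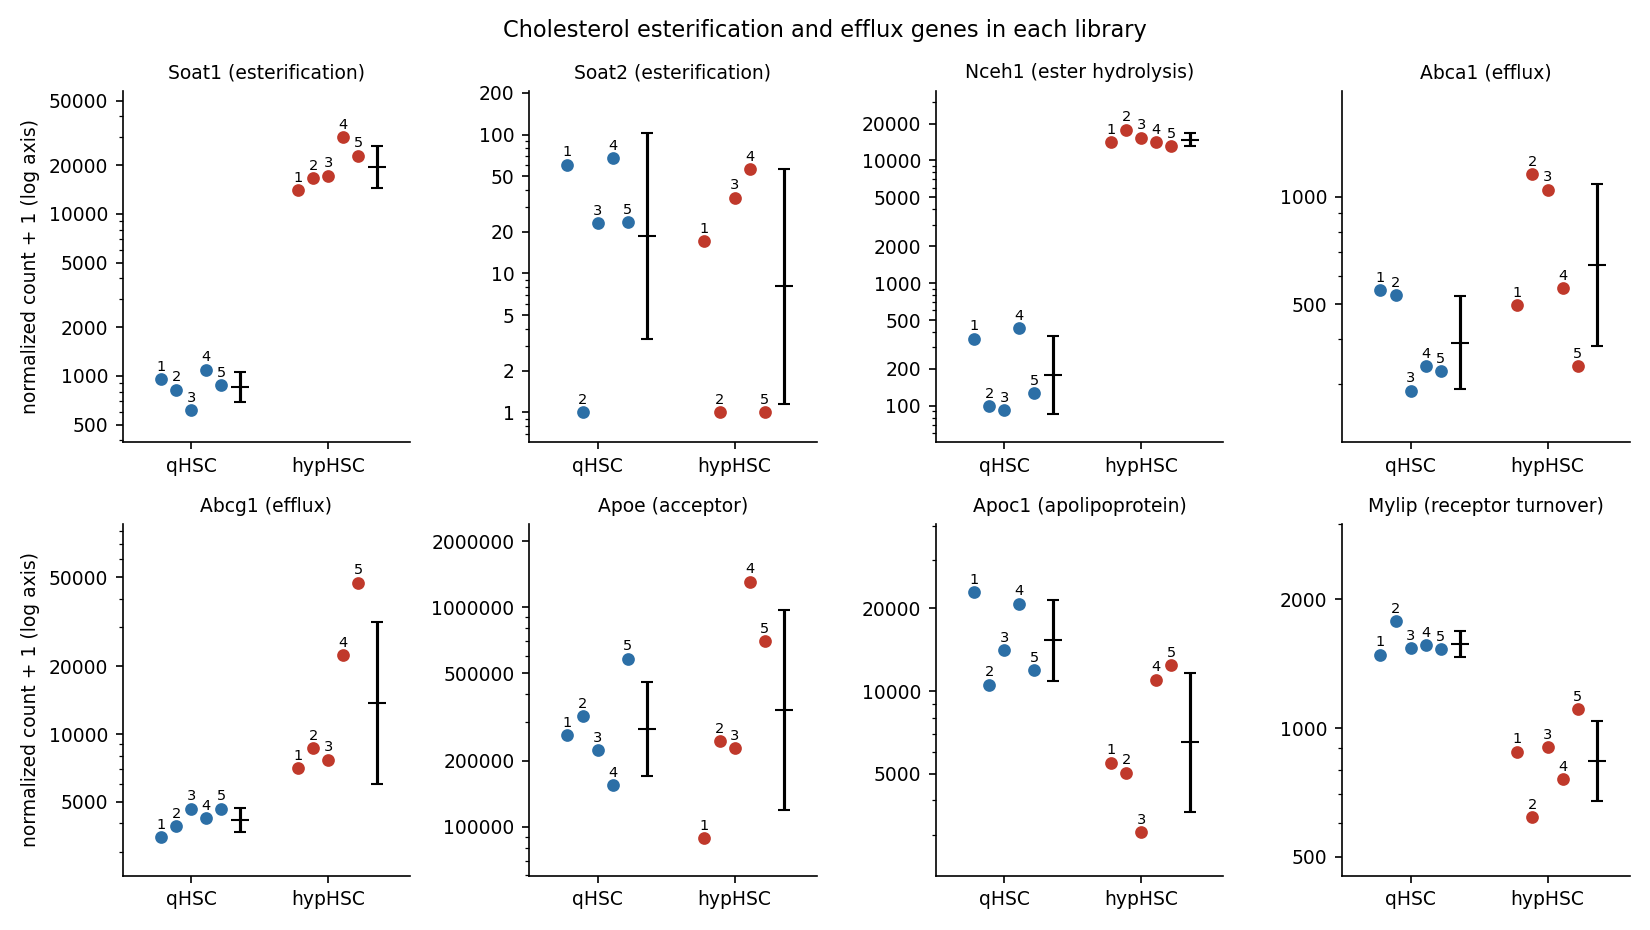
Normalized count + 1 of each gene in each library on a log axis, qHSCs in blue and hypHSCs in red, with the replicate number above each point; bars show the mean ± SD of the log2 values (n = 5 per group). *Soat1* and *Nceh1* lie apart by more than 1 order of magnitude, hypHSC 4 and 5 lie above hypHSC 1 to 3 for *Abcg1*, *Apoe*, *Apoc1* and *Soat1*, and *Soat2* sits near the detection floor in both groups.

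*Soat1* (chromosome 1, 156255676 to 156301898, GRCm39), the main acyltransferase of non-parenchymal cells, was detected at 949, 820, 614, 1094 and 871 normalized counts in qHSC 1 to 5. In hypHSC 1 to 5 it stood at 13975, 16712, 17272, 29791 and 22896. Every hypHSC library lay far above every qHSC library, and the spread within each group was small beside the gap, with the highest library at 2.13 times the lowest in hypHSCs and 1.78 times in qHSCs. The log2 fold change was 4.50 (SE 0.23, 95% interval 3.999 to 5.01, adjusted p = 1.47e-07 in limma), a fold of 22.7. The exact two-sided permutation test gave p = 0.00794, the smallest it can give, and this test was run for each of the 8 genes. Across all alternatives run the value stayed between 3.57 and 4.73 and was called each time. Among qHSCs *Soat1* was highest in qHSC 1 and 4, which held the highest macrophage and Kupffer cell marker sums of their group. Among hypHSCs it was highest in hypHSC 4 and 5, which held the lowest macrophage and the highest Kupffer cell sums. The part of macrophage RNA in this difference was not tested.

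*Soat2* (chromosome 15, 102059010 to 102071893) was close to absent in both groups. It had 59.7, 0, 22.0, 66.7 and 22.5 normalized counts in qHSC 1 to 5 and 16.2, 0, 34.1, 55.6 and 0 in hypHSC 1 to 5, from 0 to 78 reads per library. The 3 libraries at 0 allow up to 2.56 normalized counts in qHSC 2, 3.11 in hypHSC 2 and 4.54 in hypHSC 5, limits that cover counting error only. The ranges overlapped, with qHSC 1 and 4 above the highest hypHSC library, and the log2 fold change of -1.21 had a 95% interval of -4.46 to 2.05 (adjusted p = 0.53 in limma, exact permutation p = 0.48), so that a difference of either sign was not detectable at this depth. As a share of the reads of both acyltransferase genes, *Soat2* made up at most 0.197% in any hypHSC library and 0% to 5.92% in qHSCs, the latter with a median of 3.46%. hypHSC 2 and 5 and qHSC 2 held no *Soat2* read at all, so the share in these libraries rests on *Soat1* alone.

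*Nceh1* (chromosome 3, 27237143 to 27338757), whose product hydrolyses cholesteryl ester at the endoplasmic reticulum, showed the largest difference of the 8. In qHSC 1 to 5 it was detected at 352, 98.8, 91.3, 430.4 and 127 normalized counts. In hypHSC 1 to 5 it stood at 14162, 17796, 15368, 14098 and 13022. The hypHSC libraries were the tighter group, within 1.37-fold of each other, whereas the qHSC libraries spread over 4.71-fold with qHSC 1 and 4 above the other 3. The log2 fold change was 6.38 (SE 0.42, 95% interval 5.45 to 7.30, adjusted p = 6.91e-07 in limma, exact permutation p = 0.00794), a fold of 83.1. The same qHSC 1 and 4 held the highest macrophage sums of their group, 49587 and 110545 against 4809.8 to 9792 in qHSC 2, 3 and 5, and the highest Kupffer cell sums, 19485 and 45530.3 against 1445 to 2322. Without these 2 libraries the log2 fold change of *Nceh1* was 7.13 (adjusted p = 1.43e-07 in limma). This split was chosen after the data had been seen. It leaves out the 2 highest *Nceh1* values of the lower group, so a larger fold was fixed in advance and bears on no cause. Within hypHSCs, where the macrophage sum varied by less than 2-fold, *Nceh1* was lowest in hypHSC 5, which had the lowest macrophage sum, and highest in hypHSC 2, which had the highest macrophage sum and the lowest Kupffer cell sum (18510.3). The part of macrophage RNA in the difference was not tested.

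**Figure D2:**
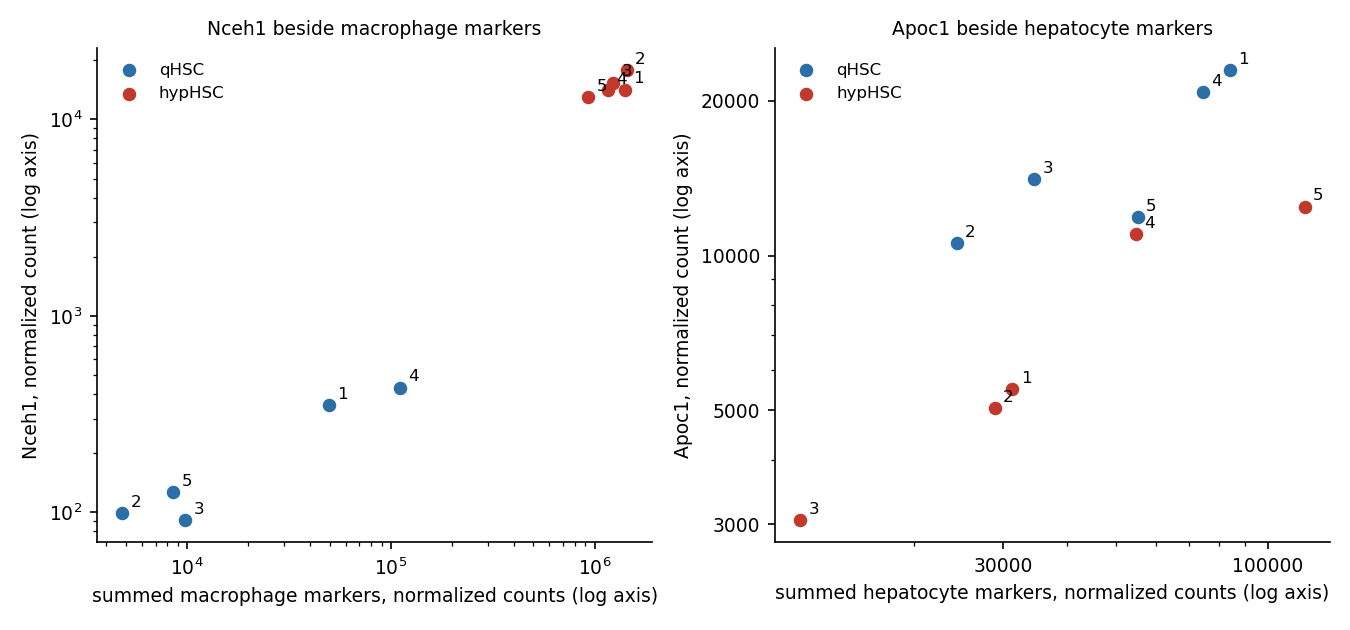
*Nceh1* against the summed macrophage markers (left) and *Apoc1* against the summed hepatocyte markers (right), normalized counts on log axes, 1 point per library with its replicate number. qHSC 1 and 4 lie above the other qHSC libraries on both axes in both panels, and hypHSC 4 and 5 have the highest *Apoc1* and hepatocyte sums of the hypHSCs.

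Because a ratio of 2 genes of 1 library does not depend on how that library was scaled, the hydrolase was also set against the acyltransferase. The ratio of *Nceh1* to *Soat1* counts was 0.371, 0.121, 0.149, 0.394 and 0.145 in qHSC 1 to 5. It was 1.01, 1.06, 0.890, 0.473 and 0.569 in hypHSC 1 to 5. Both genes were thus raised, the hydrolase further than the acyltransferase, and the lowest hypHSC ratio (0.473 in hypHSC 4) lay above the highest qHSC ratio (0.394 in qHSC 4) by a narrow margin. The ratios are given as a description, with no test.

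*Abcg1* (chromosome 17, 31276668 to 31336958), which passes sterol to lipoprotein particles, was detected at 3468, 3884, 4647, 4235 and 4649 normalized counts in qHSC 1 to 5. In hypHSC 1 to 5 it stood at 7052, 8636, 7702, 22400.4 and 47264. All hypHSC libraries lay above all qHSC libraries, but they fell into a lower set (hypHSC 1 to 3) and a higher one (hypHSC 4 and 5), and the highest was 6.70 times the lowest. The log2 fold change was 1.73 (SE 0.47, 95% interval 0.69 to 2.77, adjusted p = 0.011 in limma, exact permutation p = 0.00794), a fold of 3.32. With hypHSC 1 to 3 alone it was 0.90 (adjusted p = 0.00044 in limma), which is under the fold required for a call. This split was chosen after the data had been seen and leaves out the highest values, so a smaller fold was fixed in advance. Scaled to *Hprt*, *Pgk1* and *Actb*, it was 0.79 (adjusted p = 0.27).

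*Abca1* (chromosome 4, 53030789 to 53159896), the transporter that loads lipid-poor apolipoproteins, had 547, 529, 286, 335 and 324 normalized counts in qHSC 1 to 5. It had 497, 1157, 1047, 554 and 334 in hypHSC 1 to 5. The groups overlapped: hypHSC 2 and 3 lay above all qHSC libraries, hypHSC 1 and 5 within their range and hypHSC 4 just above it. The log2 fold change of 0.73 (SE 0.36, 95% interval -0.07 to 1.52, adjusted p = 0.12 in limma, exact permutation p = 0.12) did not pass. With hypHSC 1 to 3 alone the value was 1.11 (adjusted p = 0.016 in limma). This split was chosen after the data had been seen and leaves out hypHSC 5, the lowest of its group, so that passing there is no support for a difference. Scaled to *Hprt*, *Pgk1* and *Actb* the value turned to -0.21.

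The 2 transporters therefore did not vary together within hypHSCs. The ratio of *Abcg1* to *Abca1* was 6.34, 7.34, 16.3, 12.7 and 14.3 in qHSC 1 to 5. In hypHSC 1 to 5 it was 14.2, 7.46, 7.36, 40.4 and 141. hypHSC 1 to 3 lay within the range of qHSCs, and hypHSC 4 and 5 above it. Relative to *Soat1* counts, those of *Abcg1* were lower in hypHSCs, although both genes were called higher. The ratio of *Abcg1* to *Soat1* was 3.65, 4.74, 7.57, 3.87 and 5.33 in qHSC 1 to 5 and 0.505, 0.517, 0.446, 0.752 and 2.06 in hypHSC 1 to 5, with no overlap.

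**Figure D3:**
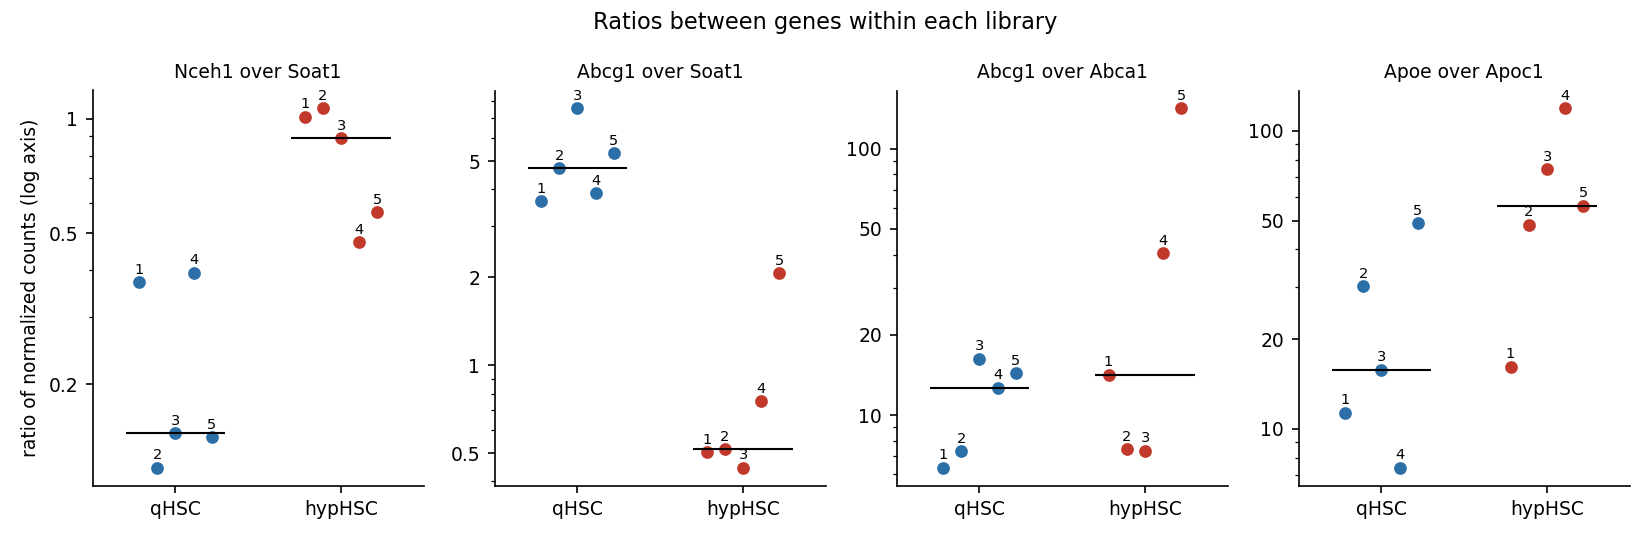
Ratio of the normalized counts of 2 genes within each library on a log axis, qHSCs in blue and hypHSCs in red, replicate numbers above the points and group medians as lines. The groups are apart for *Nceh1* over *Soat1* and for *Abcg1* over *Soat1*, and overlap for *Abcg1* over *Abca1* and *Apoe* over *Apoc1*.

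*Apoe* (chromosome 7, 19430034 to 19433113), a lipoprotein ligand and sterol acceptor that macrophages, hepatocytes and HSCs are all known to secrete, was among the most abundant transcripts of both groups. It had 260177, 318068, 222192, 153995 and 582005 normalized counts in qHSC 1 to 5. It had 88855, 244225, 227494, 1306746 and 698644 in hypHSC 1 to 5. The hypHSC libraries spread over 14.7-fold and enclosed the whole range of qHSCs, with hypHSC 1 the lowest and hypHSC 4 the highest of all 10. A log2 fold change of 0.29 (SE 0.68, 95% interval -1.19 to 1.77, adjusted p = 0.75 in limma, exact permutation p = 0.71) did not pass. The value was -0.71 with hypHSC 1 to 3 alone, which leaves out the highest hypHSC libraries. *Apoe* took 0.216% to 2.92% of the reads on genes with a symbol in hypHSCs and 0.474% to 1.64% in qHSCs. Of its exon length in GENCODE, 12.9% is shared with *Gm71725* on the opposite strand, whose reads cannot be separated in libraries without strand.

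*Apoc1* (chromosome 7, 19423405 to 19426584), the neighbour of *Apoe* in the same apolipoprotein cluster and an inhibitor of lipoprotein uptake, was lower in hypHSCs. It had 22941, 10565, 14081, 20789 and 11891 normalized counts in qHSC 1 to 5. It had 5492, 5042, 3058, 10996 and 12451 in hypHSC 1 to 5. hypHSC 1 to 3 lay below every qHSC library, while hypHSC 4 and 5 fell within the range of qHSCs. In limma the log2 fold change was -1.24 (SE 0.39, 95% interval -2.08 to -0.39, adjusted p = 0.021 in limma, exact permutation p = 0.0397), a fold of 2.36. The call was the least stable of the 4: it was lost in edgeR (-1.05, adjusted p = 0.055), with the hypHSCs of 12 weeks alone (-1.03, adjusted p = 0.101), without hypHSC 3 (-0.97, adjusted p = 0.040), without qHSC 1 (-1.09, adjusted p = 0.054), with qHSC 2, 3 and 5 alone (-0.90, adjusted p = 0.142) and after correction for GC content (-0.996, adjusted p = 0.133). Leaving out qHSC 1 or qHSC 1 and 4 removes the highest values of the higher group. Leaving out hypHSC 3 removes the lowest value of the lower group. A smaller fold was therefore fixed in advance in these 3 fits. With hypHSC 1 to 3 alone, which leaves out the highest hypHSC values, it was -1.80 (adjusted p = 0.00061 in limma), and that larger fold was fixed in advance too. The libraries with the most *Apoc1* also had the most hepatocyte marker RNA in their group. These sums were 84004 and 74360 in qHSC 1 and 4 against 24249.95 to 55344.5 in qHSC 2, 3 and 5, and 54753 and 118158 in hypHSC 4 and 5 against 11895 to 31266 in hypHSC 1 to 3. The part of hepatocyte RNA in this difference was not tested.

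The apolipoproteins of the same cluster did not move as 1 block. The ratio of *Apoe* to *Apoc1* was 11.3, 30.1, 15.8, 7.41 and 48.9 in qHSC 1 to 5 and 16.2, 48.4, 74.4, 119 and 56.1 in hypHSC 1 to 5, and the groups overlapped. *Apoc2* and *Apoc4*, which the table holds as 1 joint entry, had 659 to 2683 normalized counts in qHSCs and 1901 to 12950 in hypHSCs, and the entry was called higher (log2 fold change 1.49, adjusted p = 0.036 in limma). This call was lost when hypHSC 1, 4 or 5 or qHSC 2, 3, 4 or 5 was left out, and when libraries were scaled to the same total or to *Hprt*, *Pgk1* and *Actb*.

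*Mylip* (chromosome 13, 45543216 to 45565495), the LXR target that encodes the ubiquitin ligase IDOL, had 1484, 1779, 1539, 1562 and 1530.0 normalized counts in qHSC 1 to 5. It had 879.9, 618, 901, 758.5 and 1107 in hypHSC 1 to 5. Every hypHSC library lay below every qHSC library. Their log2 fold change of -0.91 (SE 0.18, 95% interval -1.30 to -0.52, adjusted p = 0.00146 in limma, exact permutation p = 0.00794) met the p-value but not the fold required for a call. It passed when libraries were scaled to the same total (-1.27) or to *Hprt*, *Pgk1* and *Actb* (-1.85), and without hypHSC 5 (-1.01).

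**Figure D4:**
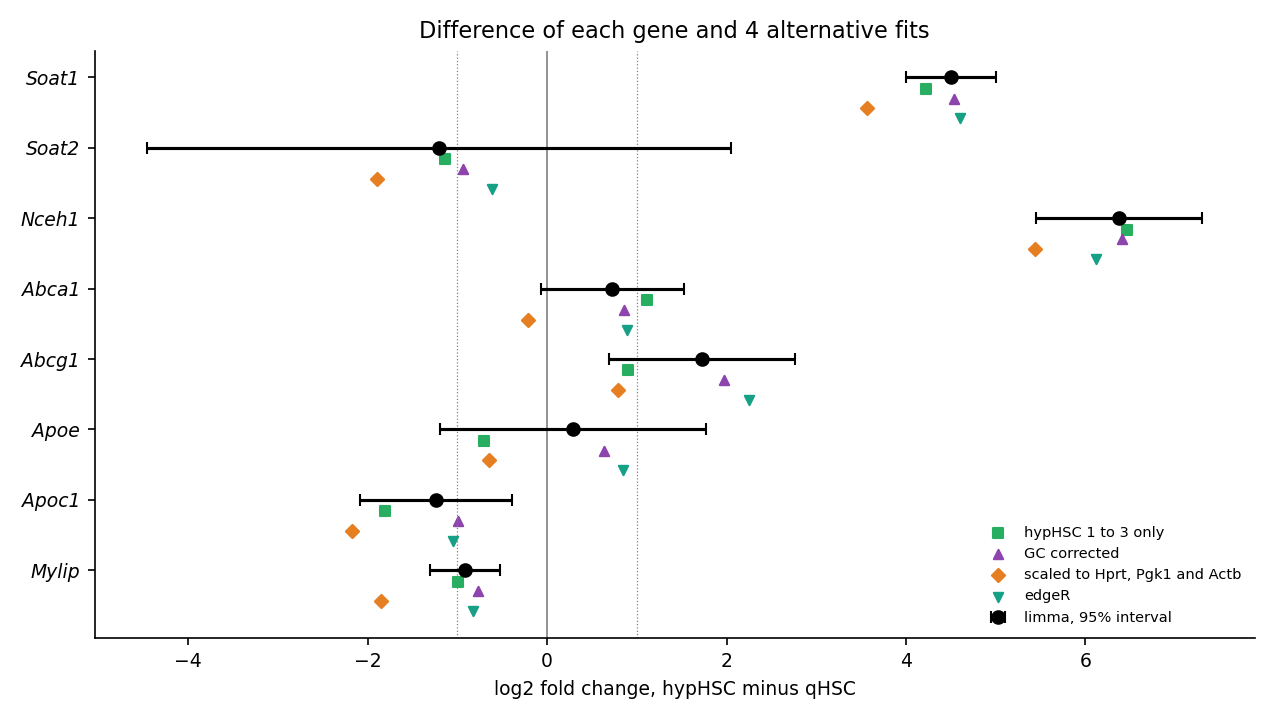
Log2 fold change (hypHSC minus qHSC) of each gene in limma with its 95% interval (black) and in 4 alternative fits (coloured); dotted lines mark the fold required for a call. *Soat1* and *Nceh1* lie beyond 3.5 in each fit drawn, *Abca1* and *Apoe* have fits on both sides of 0, and *Abcg1* drops under 1 in 2 of the 4 alternatives.

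Levels of different genes were compared per length, as FPKM (reads scaled to the summed exon length of the gene and to the reads on genes with a symbol in the library). The lengths are from GENCODE, whereas the authors counted reads on another annotation (FAST DB). Lengths may thus differ from the regions counted, and the levels and ranks between genes are approximate. In qHSCs the order of mean FPKM was *Apoe* 2277 ± 1086 (SD, n = 5), *Apoc1* 227 ± 81.6, *Abcg1* 16.5 ± 2.13, *Mylip* 14.5 ± 1.22, *Soat1* 2.48 ± 0.488, *Nceh1* 1.06 ± 0.777, *Abca1* 1.01 ± 0.311 and *Soat2* 0.442 ± 0.366. The ranges of the neighbours *Abcg1* and *Mylip* overlapped, as did those of each pair of neighbours from *Soat1* down to *Soat2*. *Soat1* lay above *Nceh1* in each of the 5 libraries, and its range lay above those of *Abca1* and *Soat2*. In hypHSCs the order was *Apoe* 2879 ± 2669, *Apoc1* 78.2 ± 36.2, *Nceh1* 56.4 ± 11.2, *Abcg1* 54.1 ± 44.8, *Soat1* 44.4 ± 11.4, *Mylip* 6.12 ± 1.25, *Abca1* 1.45 ± 0.833 and *Soat2* 0.217 ± 0.236. Here *Apoc1*, *Nceh1*, *Abcg1* and *Soat1* overlapped in range and their order cannot be resolved, whereas *Soat1* lay above *Mylip* and *Mylip* above *Abca1* in each of the 5 libraries. Among the 22968 genes with an exon length, *Nceh1* stood at rank 8339 by mean FPKM in qHSCs and at rank 630 in hypHSCs, *Soat1* at 5902 and 756, and *Apoe* at 11 and 12.

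The other genes of the pathway were taken from 7 lists with 79 symbols, of which 78 entries were found and 72 tested. Of these, 19 (26.4%) were called higher and 11 (15.3%) lower, beside 17.8% and 21.7% of all genes, and their median log2 fold change was -0.35. Scaled to *Hprt*, *Pgk1* and *Actb* the counts turned to 12 higher and 30 lower, and scaled to the same total they were 17 and 16.

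Lysosomal and intracellular sterol transport held 6 genes called higher and 1 lower of 15 tested (median 0.30), which became 3 and 4 when scaled to *Hprt*, *Pgk1* and *Actb* and 6 and 3 with the same total. *Lipa*, the lysosomal acid lipase that frees cholesterol from ingested ester, rose with a log2 fold change of 2.95 (SE 0.31, adjusted p = 1.78e-05 in limma), from 4603 to 7976 normalized counts in qHSCs to 24552 to 75382 in hypHSCs. *Npc1* and *Npc2*, which carry that cholesterol out of the lysosome, rose by 2.31 and 2.63. *Npc2* stood at 12561 to 17677 in qHSCs and 74524 to 108531 in hypHSCs. *Stard4*, *Stard5* and *Osbpl11*, which encode cytosolic and membrane contact sterol carriers, made up the rest of the 6. *Osbpl5* was the gene called lower (-4.24, adjusted p = 0.0093).

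Among LXRs, partners and targets, 4 of 13 were called higher and 1 lower (median -0.55), a balance that turned to 3 and 8 when scaled to *Hprt*, *Pgk1* and *Actb* and was 4 and 3 with the same total or with 12 weeks only. *Nr1h3*, which encodes LXRα, had 382 to 1480.3 normalized counts in qHSCs and 1369 to 4516 in hypHSCs (log2 fold change 2.33, adjusted p = 0.00097 in limma). As for *Nceh1*, its highest qHSC values were in qHSC 1 and 4 (815 and 1480.3, against 382 to 426 in the other 3). *Nr1h2*, which encodes LXRβ, was not called (-1.05, adjusted p = 0.081), and the partner gene *Rxra* was lower (-1.77, adjusted p = 0.0041). Targets did not move as a group: *Arl4c* (2.82), *Smpdl3a* (1.501) and *Lpl* (3.73) were higher, whereas *Srebf1* (-0.55), *Lpcat3* (-0.35) and *Pltp* (-0.75) were not called. *Lpl*, the lipoprotein lipase gene and the most abundant of this list, had 3815 to 5321 normalized counts in qHSCs and 36906 to 84159 in hypHSCs.

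Other efflux and HDL genes had 1 call higher and 2 lower of 9 tested (median -0.89, also with *Abcg8* at its bound). *Abcg8*, partner of *Abcg5* in sterol secretion, was at 0 in all 5 hypHSC libraries and at 17.0 to 57.3 normalized counts in qHSCs, which against 3 reads per library is at least 11.2-fold lower. *Abcg5* had 0 to 34.8 in hypHSCs and 0.85 to 61.6 in qHSCs and was not called, and *Abcg4* stayed below the filter. *Lcat*, whose product esterifies cholesterol in plasma, was lower (-1.62, adjusted p = 0.043), and *Cav1* was higher (7.95, adjusted p = 6.65e-05). *Cav1* had 0 to 25.6 normalized counts in qHSCs and 488 to 1156 in hypHSCs, so the size of its fold depends on the pseudocount. The count of genes called lower in this list dropped to 1 when hypHSC 1, 2 or 3 or qHSC 1, 3, 4 or 5 was left out, in DESeq2 and edgeR, with 12 weeks only, with qHSC 2, 3 and 5 only, with the same upper quartile, without a filter, with the filter on a mean of at least 100 and after GC correction. It rose to 4 with the same total, 5 with hypHSC 1 to 3 only and 6 when scaled to *Hprt*, *Pgk1* and *Actb*. *Scarb1*, the HDL receptor gene, was not called (-1.92, adjusted p = 0.15) and spread from 9.07 in hypHSC 5 to 941 in hypHSC 2, against 615 to 1160.5 in qHSCs. *Abca7* was not called either (-0.44, adjusted p = 0.56).

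Of the lipoprotein receptor genes, 5 were higher and none lower of 10 tested (median 1.63): *Sort1* (4.42), *Sorl1* (8.31), *Lrp8* (5.34), *Stab1* (4.22) and *Stab2* (1.92, adjusted p = 0.043 in limma). *Sorl1* had 0 to 9.41 normalized counts in qHSCs and 733 to 1410 in hypHSCs, and *Lrp8* had 0 to 4.53 and 17.8 to 130. With qHSC values at or near 0, the size of these folds depends on the pseudocount. The count higher was 4 in edgeR, with the replicate block, with 12 weeks only, with the filter on a mean of at least 100, with the same total, and when hypHSC 1, 2, 3 or 4 or qHSC 2, 3 or 5 was left out. Scaled to *Hprt*, *Pgk1* and *Actb* 4 were higher and 2 lower. *Lrp1* had a log2 fold change of -0.07 (adjusted p = 0.90), and *Lrpap1*, the most abundant gene of the list, 0.25 (adjusted p = 0.32). *Vldlr* was at 0 in all qHSCs and above 0 in 2 hypHSC libraries, and it was not tested.

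Enzymes of the oxysterol and bile acid routes gave 1 call higher and 2 lower of 7 tested (median 0.78). *Ch25h*, which makes 25-hydroxycholesterol, rose from 7.7 to 168 normalized counts in qHSCs to 360.1 to 650 in hypHSCs (log2 fold change 4.03, adjusted p = 0.00044 in limma). *Cyp27a1*, a mitochondrial sterol hydroxylase gene, fell from 2813 to 4333 in qHSCs to 200.4 to 1306 in hypHSCs (-2.73, adjusted p = 0.00059). *Cyp46a1* was lower (-4.12, adjusted p = 0.011), with 0 to 65.2 normalized counts in hypHSCs and 35.9 to 107 in qHSCs. *Ebp* (0.78, adjusted p = 0.015) was not called, and *Cyp11a1* was at 0 throughout.

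Partners in neutral lipid hydrolysis and acyl transfer gave 1 call higher and 3 lower of 11 tested (median -0.63), or 0 and 6 when scaled to *Hprt*, *Pgk1* and *Actb*. *Hilpda*, an inhibitor of triglyceride hydrolysis, was higher (1.69, adjusted p = 0.00014), and the carboxylesterase genes *Ces1f* (-4.55) and *Ces1g* (-2.71) and the acyl-CoA synthetase gene *Acsl4* (-1.04) were lower. The hormone-sensitive lipase gene *Lipe*, which also cleaves cholesteryl ester, was not called (-0.36, adjusted p = 0.70), nor were *Ces1d* (-0.45, adjusted p = 0.75) and *Aadac* (-0.46, adjusted p = 0.64). Apolipoprotein genes besides the joint *Apoc2* and *Apoc4* entry gave 2 calls lower, *Apob* (-1.87) and *Apoa5* (-1.88), of 10 entries tested in this list (median -0.86). *Apoa1* (-0.89, adjusted p = 0.17) and *Apoa2* (-0.44, adjusted p = 0.71), the most abundant, were not called. Hepatocytes express most of these genes, and the part of hepatocyte RNA in these counts was not tested. With hypHSC 1 to 3 alone 8 of the 10 entries were called lower and none higher. Of all 14630 genes tested, 3130 were called lower there. This split was chosen after the data had been seen. It leaves out hypHSC 4 and 5, the highest hypHSC libraries for most of these entries, so lower folds were fixed in advance for those. With qHSC 2, 3 and 5 alone none of the 10 was called in limma. That split, chosen in the same way, leaves out qHSC 1, the highest of its group for most entries.

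**Figure D5:**
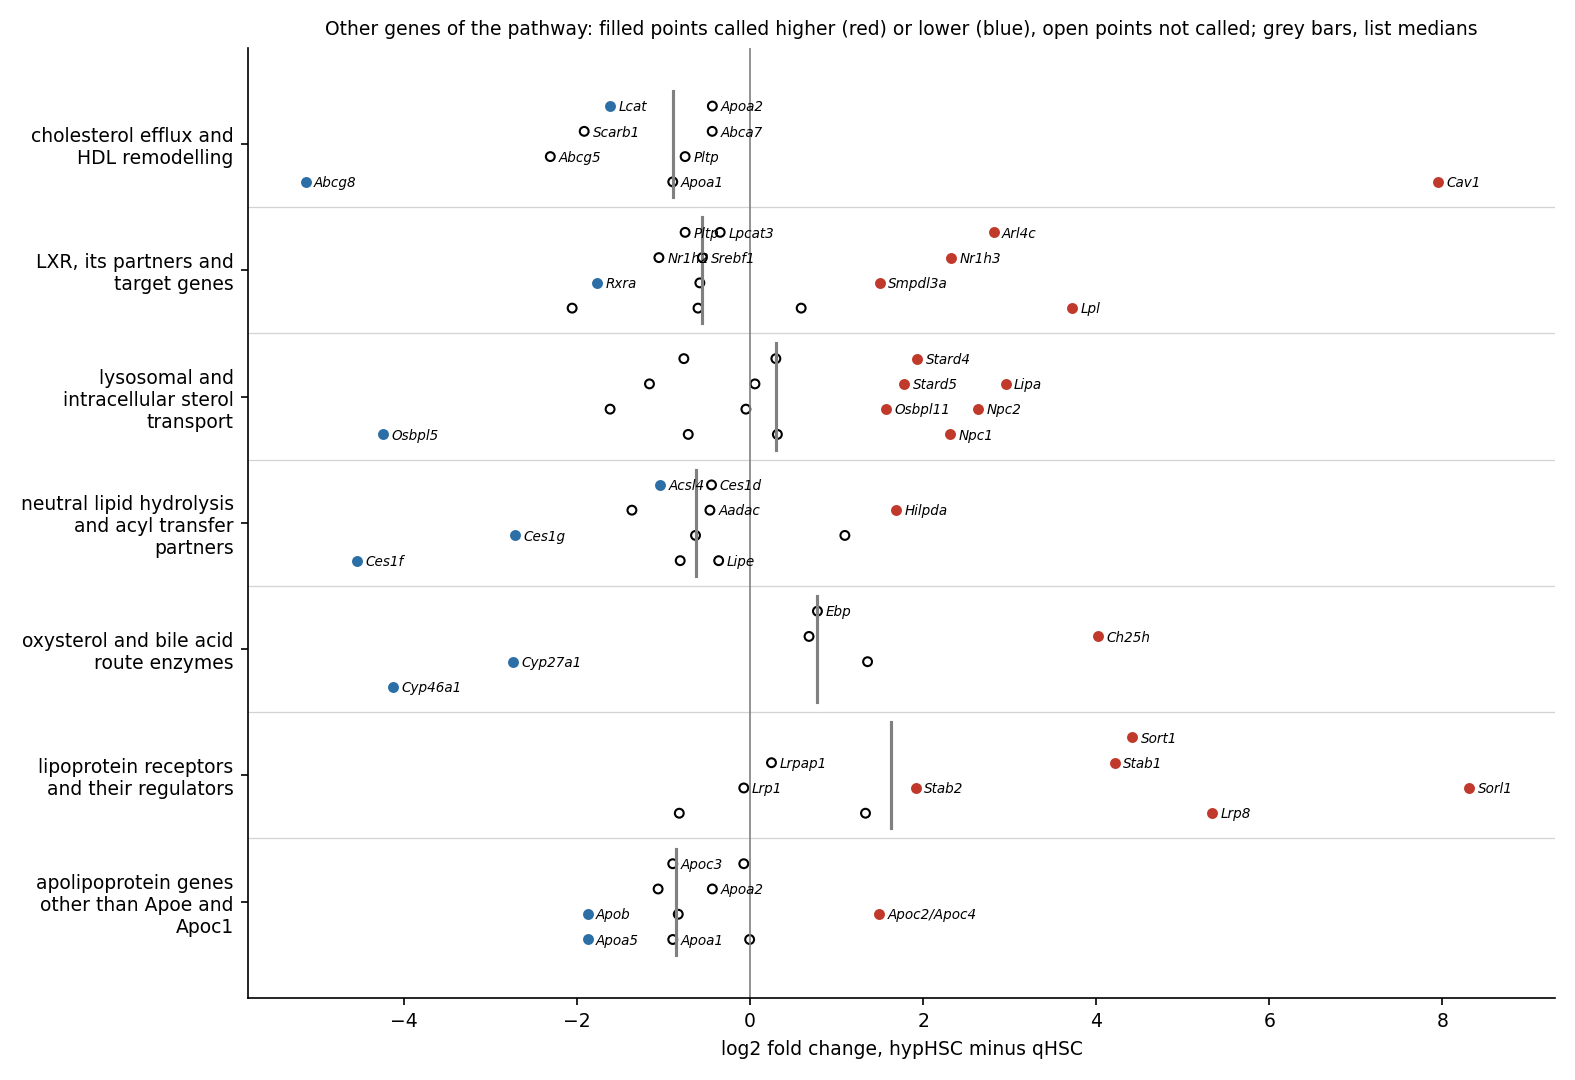
Log2 fold change (hypHSC minus qHSC) of tested genes of 7 pathway lists, 1 row of points per list, with the names of those described in the text; filled red points were called higher, filled blue points lower and open points were not called, and grey bars mark the medians over all tested genes of each list. Called genes lie on both sides of 0 in 6 of the lists, and the lipoprotein receptor list has calls on the higher side alone (2 lower when scaled to *Hprt*, *Pgk1* and *Actb*, which is not drawn).

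The genes most like each of the 8 were sought among the 10792 tested genes whose mean reached 100 normalized counts, by Pearson correlation of log2 values centred within each group over the 10 libraries, which share depth, RNA quality and cell composition. The nearest genes to *Nceh1* were *Rassf2* (r = 0.98), *Ctsh* (0.98) and *Fuca2* (0.97), each with a higher mean in hypHSCs. The nearest to *Soat1* were *Tspan13* (0.94), *Gm31734* (0.94) and *N4bp2l1* (0.92). *Apoc1* was nearest to *Mbl1* (0.96), *Car3* (0.96) and *Apoc3* (0.95), *Apoe* to *Psmd5* (0.99), *Itm2b* (0.98) and *Exosc3* (0.97), and *Abcg1* to *Slc39a1*, *Zfp780b* and *Tmem60* (0.99 or more each). *Abca1* was nearest to *Exosc10*, *Ccdc97* and *Nek9* (0.97 each), and *Mylip* to *Ctdspl2*, *Uri1* and *Izumo4* (0.94 to 0.95). For *Soat2*, near its floor, the highest values were 0.85 to 0.86 (*Dnttip1*, *Zmynd19* and *Siah2*). The group with the wider spread weighs most in these correlations, which is hypHSCs for *Abcg1* and qHSCs for *Nceh1*.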

How the data were processed

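RNA of sorted hypHSCs and qHSCs (5 libraries each) was converted from its poly(A) tail, amplified and sequenced in pairs without strand. The authors mapped reads to mm39 with STAR, counted them per gene with featureCounts (Subread 1.5.0) and deposited a signal per gene, the count divided by a DESeq2 size factor. Multiplying by that factor gave whole reads for 100% of values (tolerance 0.1 read), and these served for depth, FPKM, DESeq2 and edgeR. Entries without a symbol were left out. Groups came from sample titles.

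limma 3.58.1 (R 4.3.3, intensity trend) was run on log2(normalized count + 1). Steps were tested on simulated data. The other choices tried were the pseudocount, the filter, 4 scalings, DESeq2 1.42.0, edgeR 4.0.16 (quasi-likelihood), the replicate block, 12 weeks only, and each library left out. Added after the data had been seen were hypHSC 1 to 3 only, qHSC 2, 3 and 5 only, and correction for the GC content of the longest transcript in each library (lowess, span 0.3). Exon lengths and overlaps are from GENCODE on GRCm39.

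The 8 genes, the lists and the naming rule were chosen with earlier results of these data known. Named genes are the 8, genes of the lists chosen for their role, the 2 most abundant of each list and the 3 most alike to each of the 8. Called genes of the lists that fall outside this rule (such as *Stard4*, *Sorl1*, *Cav1* and *Ces1f*), and marker genes at 0, were named after their values had been seen. Some genes of the lists count in the list totals and are not reported here.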

Additional observations from a re-analysis of the deposited data

Results flagged for a closer look

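For the 8 genes and 25 further named genes, each group of 5 libraries was examined for a library whose gap to its nearest neighbour was above 0.71 of the group's range (Dixon's 95% limit). Of 66 groups 5 were marked. Chance alone marks about 1 in 20 where values are normally distributed, a rate that need not hold for counts, least of all near 0. *Mylip* in qHSCs was marked for qHSC 2, the highest (1779 against 1484 to 1562, ratio 0.738). *Pltp* in qHSCs was marked for qHSC 3, the lowest (6427 against 8463 to 9080, ratio 0.768). *Ch25h* in qHSCs was marked for qHSC 3, the highest (168 against 7.7 to 38.2, ratio 0.809). *Abcg4* in hypHSCs was marked for hypHSC 5 (59.0 against 0 to 12.1, ratio 0.794) and *Vldlr* in hypHSCs for hypHSC 1 (93.0 against 0 to 19.7, ratio 0.789).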

How the results depend on the processing

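*Soat1* and *Nceh1* kept their direction and call in each alternative (*Nceh1* 5.44 to 7.13), and *Soat2* was never called (the filter on a mean of at least 100 leaves it out). The median log2 fold change of all genes was -0.54 with the same total, -0.08 with the same upper quartile, -0.16 with TMM, -1.12 with *Hprt*, *Pgk1* and *Actb*, -0.07 with hypHSC 1 to 3 only and -0.03 after GC correction, beside -0.20. Scaling to *Hprt*, *Pgk1* and *Actb* gave -0.21 for *Abca1*, 0.79 for *Abcg1*, -0.65 for *Apoe* and -1.85 for *Mylip*, 2 of the 8 genes lower, 12 pathway genes higher and 30 lower, and 1472 genes higher and 6990.0 lower of all tested (2602 and 3177 in the main result). The same total gave -0.0653 for *Apoe* and -1.27 for *Mylip*, with 2 of the 8 lower. edgeR gave -1.05 and 12 weeks only -1.03 for *Apoc1*, with 0 of the 8 lower in each. hypHSC 1 to 3 only gave 1.11 for *Abca1*, 0.90 for *Abcg1*, -0.71 for *Apoe* and 18 pathway genes lower. qHSC 2, 3 and 5 only gave 1.65 for *Abcg1* (adjusted p = 0.056 in limma), -0.0242 for *Apoe*, -0.90 for *Apoc1*, 0 of the 8 lower and 7 pathway genes lower. GC correction gave -0.996 for *Apoc1* and 0 of the 8 lower. The cause of these changes was not tested. Leaving out 1 library gave -0.20 (without hypHSC 4) to 0.77 for *Apoe*, -1.47 to -0.97 for *Apoc1*, -1.01 to -0.80 for *Mylip*, and 0 (without hypHSC 3 or qHSC 1) to 2 (without hypHSC 5) of the 8 lower.

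Numbers 1 to 5 occur in both groups, but the labels tie them to nothing shared. Deviations of same-numbered libraries correlated at 0.01 to 0.13, and 1 of 5 hypHSC libraries correlated best with its own number. The groups were compared unpaired, and whether same-numbered libraries share a day or batch was not tested. With the replicate block 3 of the 8 were higher and 1 lower, and 2557 genes were higher and 3229 lower of all tested. Depth limits *Soat2*, *Abcg4*, *Abcg5* and *Vldlr*, which hold few reads.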

Other observations

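Within the groups the 8 genes did not vary as 1 set. Over the 10 libraries, with log2 values centred within each group, *Abcg1* varied with *Apoe* (Pearson r = 0.74) and *Apoc1* (0.73) and against *Abca1* (-0.69), *Soat1* with *Apoe* (0.69) and *Apoc1* (0.68), and *Nceh1* with none of the other 7 above 0.43. These values describe 10 libraries that share depth, RNA quality and cell composition. The group with the wider spread weighs most in them. *Abcg1* spanned 6.70-fold in hypHSCs and 1.34-fold in qHSCs, and *Nceh1* 1.37-fold and 4.71-fold.

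The GC content of the longest transcript was 44.2% for *Soat1*, 45.3% for *Nceh1*, 47.6% for *Abca1*, 49.7% for *Mylip*, 52.2% for *Apoc1*, 52.6% for *Abcg1*, 54.8% for *Soat2* and 56.5% for *Apoe*, beside a median of 49% over the 14245 tested genes with a transcript sequence. Correction for GC content in each library widened the gap between hypHSC 4 and 5 and the other hypHSCs for *Apoe* (1806400 and 1727200 normalized counts, against 71243 to 195420) and *Abcg1* (27788 and 91182, against 5972 to 7143), and *Soat1* and *Nceh1* kept log2 fold changes of 4.53 and 6.40.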
